A study of Mus musculus with 8 samples.

Results

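The miR-7 and miR-671 microRNAs (miRNAs), with the long non-coding RNAs Cdr1as and Cyrano, form a small network of non-coding RNAs known from mouse brain. The members were taken by name from the table of counts, which lists them as mmu-miR-7a-5p, mmu-miR-7b-5p, mmu-miR-7a-1-3p, mmu-miR-671-5p and mmu-miR-671-3p. All 5 were present among the 422 miRNAs of the table, and each had reads in every library. The remaining 3p arms of the miR-7 hairpins, miR-7a-2-3p and miR-7b-3p, were read beside them, which made 7 arms. Small RNA libraries were sequenced for hippocampi of 4 mice of the inbred strain BTBR T+ Itpr3tf/J (BTBR), used as a model of autism, and of 4 C57BL/6J (B6) control mice. All were adult males of 12 weeks, no treatment is given for them, each library came from a single animal, and the question was which hippocampal miRNAs differ between the strains. BTBR and B6 differ at many loci, so a strain difference cannot be assigned to any single allele.

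A miRNA hairpin yields a 5p and a 3p arm. The arm that is kept in Argonaute is the guide, and the other, the passenger, is mostly discarded. The guide recognises targets through its seed, bases 2 to 8. miR-7 is a guide of neurons and endocrine cells. Cdr1as is a circular RNA that carries a long series of miR-7 seed matches and a single site for miR-671-5p, through which it can be sliced. Cyrano is a linear RNA with an extensively paired miR-7 site that leads to the decay of miR-7, a process called target-directed miRNA degradation (TDMD). Since TDMD acts on a loaded guide and spares the passenger, the ratio of guide to passenger is used as its readout, while a change in transcription moves both arms.

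The mature sequences show why the arms have to be read one by one. All 7 arms matched a RefSeq entry by name (GRCm38), and they are printed 5′ to 3′ with the seed in capitals.
miR-7a-5p: uGGAAGACuagugauuuuguugu
miR-7b-5p: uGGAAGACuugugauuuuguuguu
miR-7a-1-3p: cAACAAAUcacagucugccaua
miR-7a-2-3p: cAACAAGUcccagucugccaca
miR-7b-3p: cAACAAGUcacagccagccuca
miR-671-5p: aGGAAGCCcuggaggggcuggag
miR-671-3p: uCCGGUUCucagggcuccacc

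The seed GGAAGAC was shared by miR-7a-5p and miR-7b-5p and by no other of the 367 miRNAs of the table that matched a RefSeq sequence. Over the 23 bases they have in common these guides differed only by A10U, counted from the 5′ end with the base of miR-7a-5p first, so reads of one may have been assigned to the other and their separate levels are uncertain to that extent. The passenger arms are easier to separate. miR-7a-1-3p differed from miR-7a-2-3p by A7G, A10C and U21C, with the base of miR-7a-1-3p first, and the A7G difference gave it a seed of its own. miR-7a-2-3p and miR-7b-3p had the seed AACAAGU in common. The seeds of miR-671-5p and miR-671-3p occurred once each.

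The mature miR-7a-5p is encoded at a pair of loci in GRCm38, at chr13:58392841-58392863 on the minus strand (Mir7-1, within an intron of Hnrnpk on the same strand) and at chr7:78888295-78888317 on the plus strand (Mir7-2, outside annotated genes). Hnrnpk encodes an RNA-binding protein. miR-7b-5p lies at chr17:56243017-56243040 on the plus strand (Mir7b), also outside annotated genes. A read of miR-7a-5p therefore does not tell which of its hairpins it came from, whereas miR-7a-1-3p comes from Mir7-1 and miR-7a-2-3p from Mir7-2. miR-671-5p at chr5:24592132-24592154 and miR-671-3p at chr5:24592171-24592191, both on the plus strand, come from the hairpin Mir671. That hairpin overlaps an exon of Chpf2 on the same strand and an exon of a transcript of Smarcd3 on the other strand. Chpf2 encodes an enzyme of chondroitin synthesis, and Smarcd3 a subunit of a chromatin remodelling complex.

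The target sites of the network are shown from the GENCODE transcripts of the same build, in the sense of the target, with the match to the miRNA seed in capitals.
miR-7 site in Cyrano: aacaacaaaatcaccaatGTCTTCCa
miR-671-5p site in Cdr1as: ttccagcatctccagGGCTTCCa
miR-7 site in Cdr1as: tccagaaaaatccaaGTCTTCCa

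The Cyrano site lies at chr2:119602136-119602161 on the plus strand, in an annotated transcript (1700020I14Rik) of 8300 nt. Besides the seed, 13 unbroken bases paired with positions 11 to 23 of miR-7a-5p and 14 with positions 11 to 24 of miR-7b-5p. Of the 55341 GENCODE genes searched, 4 had a transcript with that stretch of 14 nt, and 1 had it with a seed match within 10 nt after it. The transcript held 2 matches to GTCTTCC on the sense strand, and at the other match the longest unbroken pairing of the 3′ part of miR-7a-5p was 3 bases. Cdr1as was not looked up under its own name: its sequence was taken to be the exon of the non-coding gene C230004F18Rik with the most miR-7 seed matches, at chrX:61183248-61186174 and 2927 nt long. The counts of sites rest on that choice and are a description. This exon held 123 matches to GTCTTCC on the sense strand and 0 on the other strand, at a median spacing of 18 nt. By comparison, 161 of 598 other lincRNA transcripts of at least that length held the motif in their first 2927 nt, which is 26.9%, and the highest number in one of them was 3. The Cdr1as site shown, at chrX:61183571-61183593, was the one with the most matches to miR-7a-5p, at 16 of 23 bases. The exon held 1 sense match to GGCTTCC, the seed match of miR-671-5p, at chrX:61186029-61186051, where 19 of 23 bases paired. These matches describe the reference sequence of B6, and the levels of Cdr1as and Cyrano were not analysed here.

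The libraries held between 2247482 (BTBR replicate 2) and 7904990 (BTBR replicate 4) miRNA reads. Levels are given as CPM, the count of an miRNA scaled to a fixed library total after TMM normalization. The TMM factors ran from 0.872 to 1.18 and were highest in B6 replicate 2. Whole profiles correlated by Spearman's rho of 0.938 to 0.981 within a strain and 0.931 to 0.973 between strains. The tissue label was read against miRNAs of cell types: all 5 neuronal miRNAs were measured, and their summed level was 49251 to 77556 CPM in B6 and 58321 to 68043 CPM in BTBR. The 4 miRNAs of the choroid plexus, a tissue next to the hippocampus, summed to 4199 to 30086 CPM in B6, with the highest value in B6 replicate 1, and to 2753 to 7777 CPM in BTBR. The endocrine miR-375-3p was also highest in B6 replicate 1, with 76.8 to 656 CPM in B6 and 226 to 323 CPM in BTBR. The 3 oligodendrocyte miRNAs summed to 2238 to 4256 CPM in B6 and 2289 to 2922 CPM in BTBR, the 4 of red blood cells to 303 to 853 CPM in B6 and 531 to 1371 CPM in BTBR, and the 3 of muscle to 594 to 983 CPM in B6 and 786 to 1204 CPM in BTBR. The liver miR-122-5p was at 5.37 to 11.1 CPM in B6 and 5.96 to 22.4 CPM in BTBR. The red blood cell sum and miR-122-5p were highest in BTBR replicate 2, and 1 of the 4 red blood cell miRNAs, miR-451a, named after its values were seen, passed the threshold between strains (higher in BTBR, log2 fold change 1.38, edgeR adjusted p = 0.0339). In bulk tissue, fewer cells of a type and less RNA per cell cannot be told apart.

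Both miR-7 guides were abundant in hippocampus. By mean CPM miR-7b-5p ranked 16 and miR-7a-5p 27 among the 422 miRNAs. Their arm partners and miR-671 were far lower: miR-671-3p ranked 204, miR-7a-1-3p 214, miR-7a-2-3p 247, miR-671-5p 367 and miR-7b-3p 370. Together miR-7a-5p and miR-7b-5p made up 1.42% ± 0.155 of miRNA reads in B6 and 1.45% ± 0.310 in BTBR (SD, n = 4 each), with a range of 1.16% to 1.89% over the 8 mice.

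**Figure D1:**
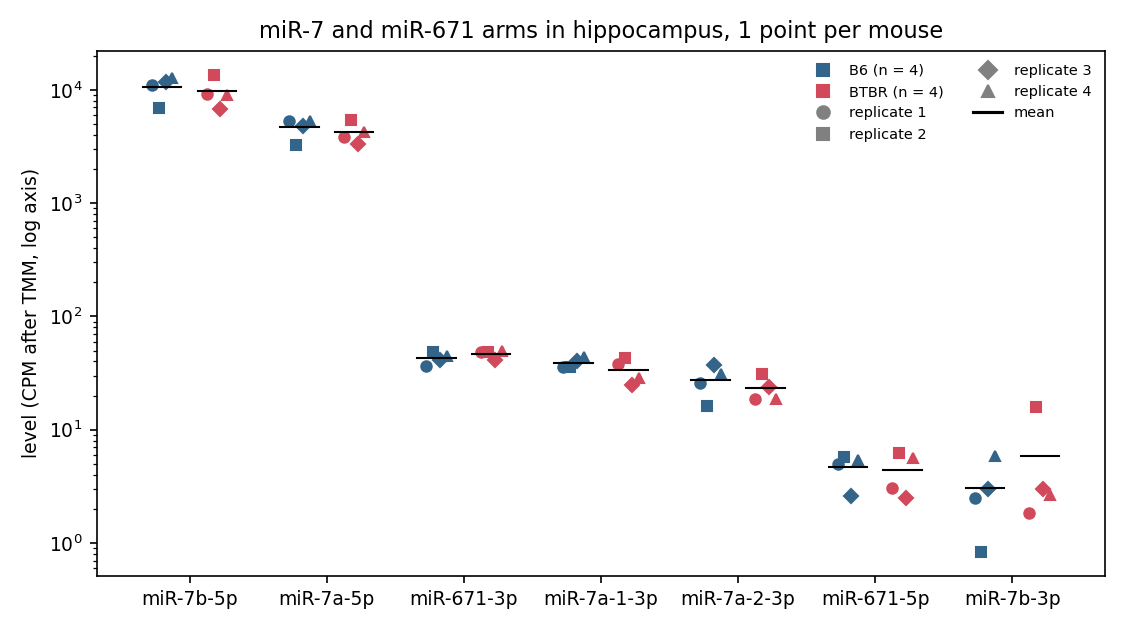
Level of each arm in each mouse, in CPM after TMM on a log axis, with 4 mice per strain and the mean as a line. The miR-7 guides lie between 3269 and 13610 CPM, the other arms below 50 CPM, and the strains overlap for every arm.

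miR-7b-5p, the most abundant of the set, was measured at 10980, 6945, 11799 and 12640 CPM in B6 replicates 1 to 4 and at 9190, 13610, 6762 and 9071 CPM in BTBR replicates 1 to 4. miR-7a-5p was at 5307, 3269, 4815 and 5326 CPM in B6 and at 3840, 5442, 3351 and 4266 CPM in BTBR, in the same order of replicates. In both guides B6 replicate 2 was the lowest B6 mouse, BTBR replicate 2 was the highest of all mice, and the strains overlapped. BTBR replicate 2 was also the library with the highest red blood cell and liver miRNAs. The mean of miR-7b-5p was 10591 ± 2523 CPM in B6 and 9658 ± 2862 CPM in BTBR, and that of miR-7a-5p was 4679 ± 969 CPM in B6 and 4225 ± 894 CPM in BTBR (SD, n = 4 each). The log2 fold change of BTBR against B6 was −0.13 for miR-7b-5p (SE 0.25, edgeR quasi-likelihood adjusted p = 0.881) and −0.15 for miR-7a-5p (SE 0.22, edgeR quasi-likelihood adjusted p = 0.822). Neither guide passed the threshold of 0.1. Without BTBR replicate 2 the log2 fold changes were −0.38 for miR-7b-5p and −0.32 for miR-7a-5p, without BTBR replicate 3 they were 0.0044 and −0.05, and neither guide was called in either fit. The 95% intervals ran from 0.626-fold to 1.33-fold for miR-7b-5p and from 0.650-fold to 1.25-fold for miR-7a-5p, so differences of those sizes in either direction remained possible. The sign of both estimates depended on scaling: with library sizes alone they were 0.03 and 0.02, while that scaling moved the median of all miRNAs from 0.02 to 0.15.

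The guides varied together from mouse to mouse, as far as their reads could be told apart. miR-7b-5p was higher than miR-7a-5p in 8 of 8 mice, by 2.02-fold to 2.50-fold (mean log2 difference 1.17, exact two-sided sign-change permutation test p = 0.0078, the smallest these data allow). The reads of miR-7a-5p over those of miR-7b-5p were 0.483, 0.471, 0.408 and 0.421 in B6 and 0.418, 0.400, 0.496 and 0.470 in BTBR. The mean of this ratio was 0.446 ± 0.0368 in B6 and 0.446 ± 0.0446 in BTBR (SD, n = 4 each). The strains overlapped, with a log2 difference of −0.0018 and an interval of 0.8293-fold to 1.21-fold (exact permutation test p = 0.943). The summed level was 15270 ± 3448 CPM in B6 and 13883 ± 3740 CPM in BTBR (SD, n = 4 each), a log2 difference of −0.14 (exact permutation test p = 0.600) that was −0.33 without BTBR replicate 2 and −0.0022 without BTBR replicate 3.

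**Figure D2:**
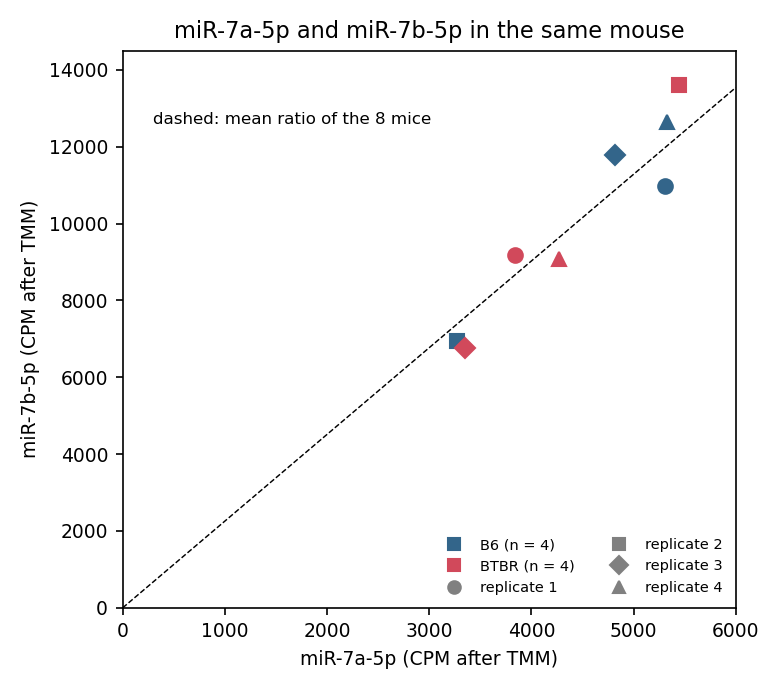
CPM of miR-7b-5p against CPM of miR-7a-5p, with 1 point per mouse, colours for the strains and symbols for the replicate numbers. The points lie along the line of the mean ratio of 2.26, and mice of both strains are found at the low and the high end.

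The ranges of the miR-7a passenger arms overlapped, but miR-7a-1-3p was above miR-7a-2-3p within every mouse, narrowly in BTBR replicate 3 (25.0 and 24.0 CPM). The passenger of miR-7b was lower than both in every mouse. miR-7a-1-3p was at 35.5, 35.5, 40.6 and 43.8 CPM in B6 and at 38.2, 42.6, 25.0 and 28.9 CPM in BTBR. BTBR replicates 3 and 4 were the lowest mice, and BTBR replicates 1 and 2 fell within the range of B6. The log2 fold change of miR-7a-1-3p was −0.21 (SE 0.25, edgeR adjusted p = 0.792). miR-7a-2-3p was at 25.7, 16.2, 37.1 and 31.2 CPM in B6 and at 18.7, 31.0, 24.0 and 18.8 CPM in BTBR, with a log2 fold change of −0.26 (SE 0.32, edgeR adjusted p = 0.792). Its lowest and its highest value were both in B6 mice. miR-7b-3p rested on 5 to 35 reads per library and was at 2.49, 0.836, 3.03 and 5.84 CPM in B6 and at 1.85, 15.7, 3.01 and 2.65 CPM in BTBR. BTBR replicate 2, the shallowest library, stood apart from the other 7 mice. The log2 fold change of miR-7b-3p was 0.84 (SE 0.76, edgeR adjusted p = 0.717), and without that library it was −0.30.

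miR-671-5p, the arm that pairs with Cdr1as, was scarce, at 10 to 47 reads per library. It was at 4.99, 5.69, 2.62 and 5.39 CPM in B6 and at 3.08, 6.28, 2.50 and 5.65 CPM in BTBR. Both strains held mice near 2.5 CPM and mice near 6 CPM. The log2 fold change of miR-671-5p was −0.11 (SE 0.46, edgeR adjusted p = 0.957), and its interval of 0.464-fold to 1.86-fold was wide. Without B6 replicate 3 the log2 fold change of miR-671-5p was −0.36, and without BTBR replicate 3 it was 0.082. Its partner miR-671-3p was at 36.5, 48.7, 41.0 and 44.9 CPM in B6 and at 48.3, 48.0, 41.3 and 49.8 CPM in BTBR. B6 replicate 1 was the lowest mouse and BTBR replicate 4 the highest, and the strains overlapped. The log2 fold change of miR-671-3p was 0.13 (SE 0.22, edgeR adjusted p = 0.855), with an interval of 0.786-fold to 1.53-fold, and without B6 replicate 1, the library with the highest choroid plexus miRNAs, it was −0.0051.

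miR-671-3p was the steadiest of these arms. Its within-strain SD was 0.151 on the log2 scale, the 9th lowest of the 422 miRNAs, and 1 of the 50 miRNAs nearest to it in level had a lower one (median 0.431). miR-7a-1-3p had an SD of 0.268, lower than all but 8 of its 50 neighbours in level. The miR-7 guides were not steady for their level: 27 of 50 neighbours of miR-7a-5p (SD 0.315) and 40 of 50 neighbours of miR-7b-5p (SD 0.402) had a lower SD. miR-7b-3p was the most variable, with an SD of 1.10. These are descriptions without a test.

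In order of level, miR-7b-5p and miR-7a-5p were separated in every mouse, and both lay above the other arms in every mouse. miR-671-3p, miR-7a-1-3p and miR-7a-2-3p followed in this order within every mouse. Some of these differences were small, neighbours overlapped in their ranges over the mice, and this order was not tested. miR-671-5p and miR-7b-3p, the lowest, overlapped as well. miR-671-3p exceeded miR-671-5p in 8 of 8 mice, by 7.31-fold to 16.5-fold (mean log2 difference 3.35, exact two-sided sign-change permutation test p = 0.0078, the smallest these data allow). The arm that pairs with the Cdr1as site shown, miR-671-5p, was therefore the less abundant arm by reads. The steps that join adapters to RNA differ in yield between sequences, and an order of reads is not strictly an order of molecules.

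Of the 5 members, 0 passed the threshold between strains by the edgeR quasi-likelihood test, where 1.66% of the 422 miRNAs did (7 called), with 1.18% higher and 0.474% lower in BTBR. The count was also 0 by DESeq2, by the edgeR exact test and by limma-voom, and 0 of 5 had an unadjusted p under 0.05, against 10.9% of all miRNAs. Their median log2 fold change was −0.13, beside 0.02 over all miRNAs, with 1 positive and 4 negative. The CPM of the strains overlapped for all 5 members and for both additional arms, whereas 6.64% of all miRNAs had CPM that did not overlap. With so few members, a count of 0 is near that background.

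**Figure D3:**
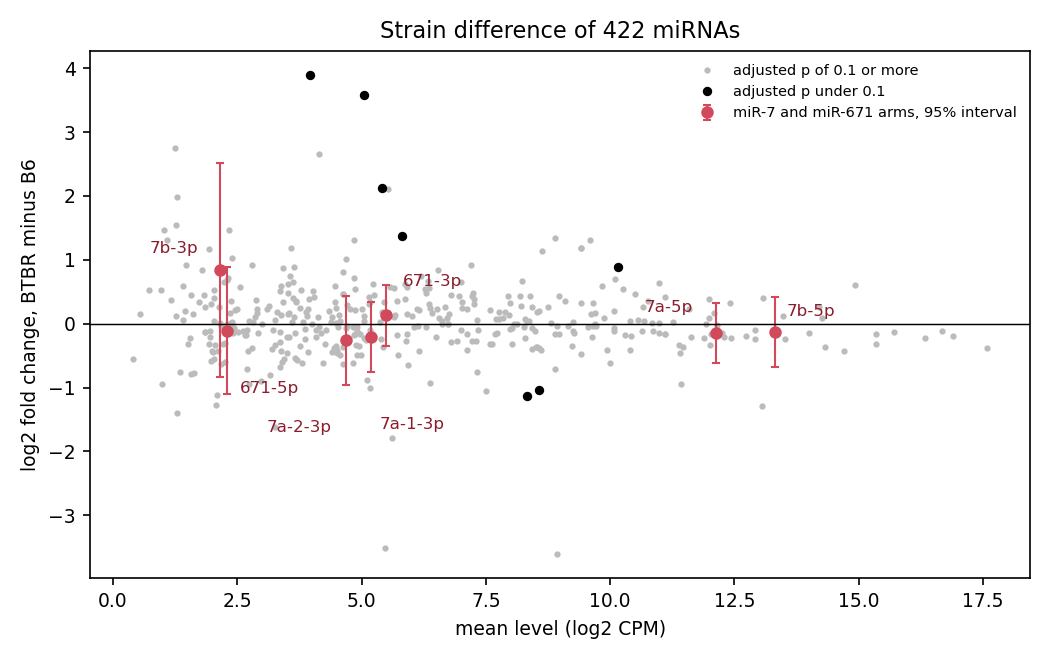
Log2 fold change of BTBR against B6 for 422 miRNAs against mean level in log2 CPM, with the 7 miRNAs past an adjusted p of 0.1 in black and the miR-7 and miR-671 arms in red with 95% intervals. All 7 red intervals cross 0, and the interval is widest for miR-7b-3p.

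The ratio of miR-7a-5p to miR-7a-1-3p, the readout of TDMD, was 149, 92.2, 119 and 122 in B6 replicates 1 to 4 and 100, 128, 134 and 148 in BTBR replicates 1 to 4. The highest and the lowest ratio were both in B6 mice. The mean was 120 ± 23.4 in B6 and 127 ± 19.9 in BTBR (SD, n = 4 each), and the strains overlapped. Both arms of 127 pairs were fitted together with a term for each mouse, and the log2 difference of this ratio was 0.09 (SE 0.27, edgeR adjusted p = 0.939 over the 127 pairs). The 95% interval ran from 0.710-fold to 1.59-fold. With a mouse left out, the log2 difference ran from −0.034 (without B6 replicate 2) to 0.20 (without BTBR replicate 1). An exact permutation test of the same ratio gave p = 0.629.

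The second passenger gave a like value, but it was set against the same miR-7a-5p reads, so the ratios are not independent. The ratio of miR-7a-5p to miR-7a-2-3p was 206, 201, 130 and 171 in B6 and 205, 176, 139 and 227 in BTBR. The lowest ratio was in replicate 3 of either strain, and the strains overlapped. The log2 difference of this ratio was 0.08 (SE 0.28, edgeR adjusted p = 0.939), with an interval of 0.692-fold to 1.62-fold. Without B6 replicate 3 the difference was −0.061, and without BTBR replicate 3 it was 0.22. Since miR-7a-5p comes from both hairpins, its reads were also set against the sum of both passengers, which gave 86.7, 63.2, 62.0 and 71.0 in B6 and 67.4, 73.9, 68.3 and 89.5 in BTBR. The means were 70.7 ± 11.4 in B6 and 74.8 ± 10.2 in BTBR (SD, n = 4 each), the strains overlapped, and the interval was 0.779-fold to 1.44-fold (exact permutation test p = 0.571).

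These ratios were steady among mice compared with other arm pairs. By within-strain SD of the log2 ratio, miR-7a-5p to miR-7a-1-3p ranked 12 and miR-7a-5p to miR-7a-2-3p ranked 17 of 127, lowest first, and the first varied by 1.62-fold over the 8 mice. The reads of miR-7a-5p exceeded those of its passengers by 122-fold and 178-fold on average, which ranked 44 and 37 among the 127 pairs by imbalance of the arms. These ranks are descriptions without a test, and the pairs were not matched for read depth.

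miR-7b was more lopsided and less precisely measured. The ratio of miR-7b-5p to miR-7b-3p was 4401, 8303, 3898 and 2164 in B6 and 4968, 866, 2250 and 3427 in BTBR. BTBR replicate 2 was the lowest mouse, and the strains overlapped. The log2 difference was −0.76 (SE 0.56, edgeR adjusted p = 0.911), and without BTBR replicate 2 it was −0.18. The ratio of miR-671-5p to miR-671-3p was 0.137, 0.117, 0.0640 and 0.120 in B6 and 0.0638, 0.131, 0.0606 and 0.114 in BTBR. It took a low value near 0.06 in B6 replicate 3 and in BTBR replicates 1 and 3, and a value above 0.11 in the other 5 mice. The log2 difference was −0.27 (SE 0.43, edgeR adjusted p = 0.939), with an interval of 0.428-fold to 1.60-fold.

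**Figure D4:**
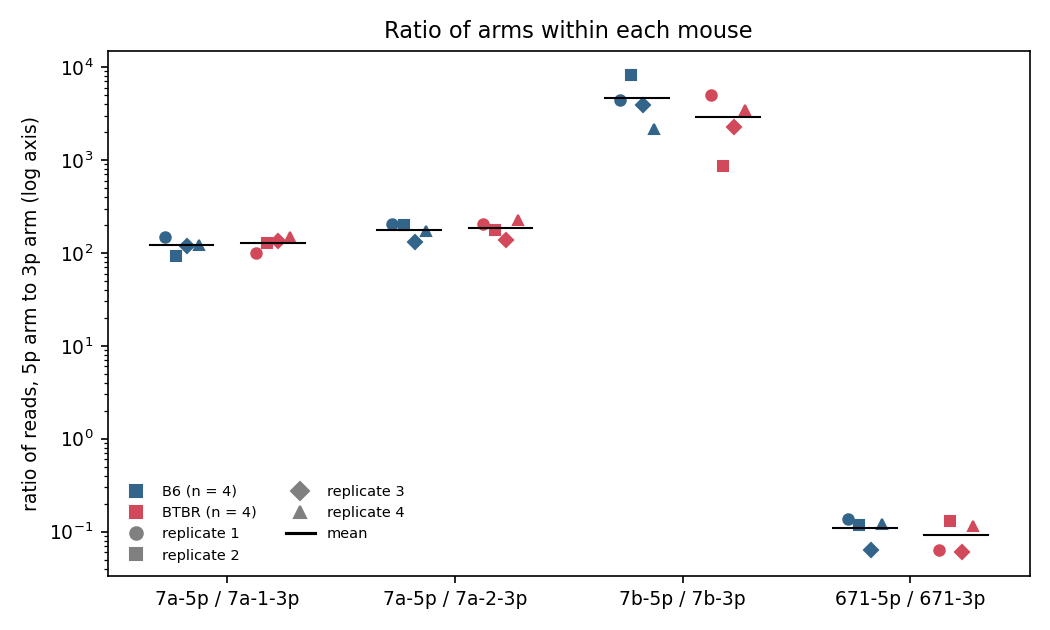
Ratio of reads of the 5p arm to the 3p arm in each mouse on a log axis, with 4 mice per strain and the mean as a line. The ratio of miR-7a-5p to miR-7a-1-3p lies between 92.2 and 149 in all mice, and that of miR-671-5p to miR-671-3p is below 1 in all mice.

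Of the 127 arm pairs, 0 passed the threshold between strains (0%) by the edgeR quasi-likelihood test, and 0 by limma on the log2 ratio, while 8 (6.3%) had an unadjusted p under 0.05 in either fit. None of the 4 pairs of miR-7 and miR-671 was among those 8. The ratios of the strains did not overlap for 3 pairs, which is 2.36%, and overlapped for all 4 pairs of miR-7 and miR-671.

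**Figure D5:**
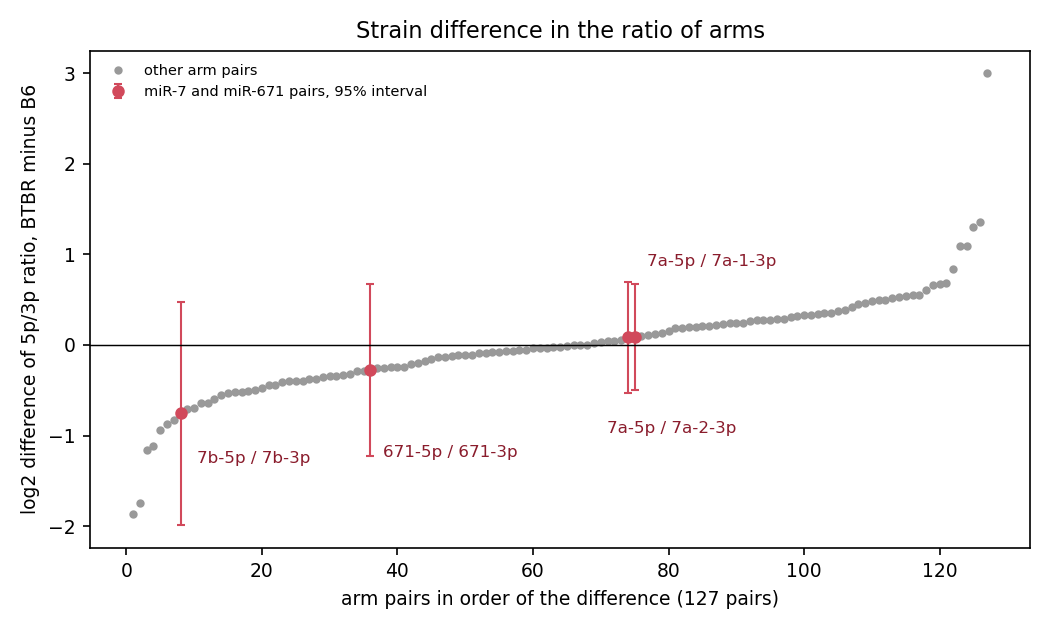
Log2 difference of the 5p to 3p ratio, BTBR minus B6, for 127 arm pairs in order of size, with the 4 pairs of miR-7 and miR-671 in red with 95% intervals. The pairs of miR-7a-5p lie near the middle of the order, and all 4 intervals cross 0.

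Other miRNAs with a reported TDMD trigger were read from the same fit. The list of 7 included miR-29b-3p (trigger Nrep), miR-322-5p and miR-503-5p (triggers Plagl1 and Lrrc58), and miR-221-3p and miR-222-3p (trigger Bcl2l11). All 7 were measured and 0 of 7 passed the threshold by edgeR, by the edgeR exact test, by DESeq2 or by limma-voom, with 0 at an unadjusted edgeR p under 0.05. Those tests called 7, 16, 21 and 6 of the 422 miRNAs, and 10.9% of all miRNAs had an unadjusted edgeR p under 0.05, so a count of 0 of 7 is near that background. Their median log2 fold change was −0.03, beside 0.02 over all miRNAs, with 2 positive and 5 negative. The extremes were miR-503-5p, at −0.79 (SE 0.63), and miR-322-5p, at 0.24 (SE 0.34). miR-503-5p was scarce, at 1.12 to 5.95 CPM in B6 and 0.722 to 2.69 CPM in BTBR. The smallest adjusted p of the list was 0.617 (edgeR), for miR-221-3p, at 2042 to 4131 CPM in B6 and 2081 to 2902 CPM in BTBR with a log2 fold change of −0.36 (SE 0.23). The arm pair of miR-221 had a log2 difference of its 5p to 3p ratio of 0.48 (SE 0.40, edgeR adjusted p = 0.911).

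Across the 8 mice, the profile of miR-7a-5p was most like that of let-7f-5p (Pearson's r = 0.971 and Spearman's rho = 0.905 on log2 CPM, of 415 miRNAs outside the miR-7 and miR-671 arms), then miR-676-3p (r = 0.928, rho = 0.952) and miR-6390 (r = 0.915, rho = 0.881). With the 2 mice farthest from the median of miR-7a-5p left out, r was 0.914, 0.819 and 0.776. let-7f-5p was at 119227, 81836, 120605 and 113966 CPM in B6 and at 94350, 120677, 86370 and 103126 CPM in BTBR, so it too was lowest in B6 replicate 2 and highest in BTBR replicate 2. Among the arms themselves, miR-7a-5p went with miR-7b-5p (r = 0.961, rho = 0.929), and less closely with its passengers miR-7a-2-3p (r = 0.732, rho = 0.762) and miR-7a-1-3p (r = 0.642, rho = 0.762). It had r = 0.372 with miR-671-5p and r = −0.30 with miR-671-3p. The profile of miR-671-3p was most like those of miR-541-5p (r = 0.835, rho = 0.714), miR-369-5p (r = 0.808, rho = 0.738) and miR-384-3p (r = 0.800, rho = 0.810), and with the 2 farthest mice left out r was 0.450, 0.742 and 0.666, so that of miR-541-5p rested largely on those mice. The arms of miR-671 had r = 0.379 and rho = 0.571 with each other. These values are descriptions over libraries of both strains that share normalization, they were the highest of many, and no p-value is attached to them.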

How the data were processed

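Small RNA libraries (TruSeq) were made from hippocampal RNA of single mice, 4 BTBR and 4 B6. The authors removed adapters, mapped reads to GRCm38 with sRNAbench, which uses Bowtie, and assigned reads lying wholly inside a miRBase v21 annotation. They deposited whole-number counts for 422 miRNAs in 8 columns, which the labels assigned to strain and replicate, and 0 per-sample columns were unused. How reads matching several loci were counted is not given in the sources used here. The reads carry no molecular identifiers, and the tests cover only the spread between mice.

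From the deposited counts, strains were compared with edgeR 4.0.16 in R 4.3.3 (TMM, quasi-likelihood test, no filter, Benjamini-Hochberg over 422 miRNAs, threshold 0.1). Standard errors and 95% intervals were taken from the same fit. CPM were computed after TMM. Ratios of arms were fitted with edgeR on the counts of both arms of 127 pairs, with terms for mouse, arm and arm by strain. Ratios and sums outside these fits were tested by exact two-sided permutation over all 70 assignments of mice (smallest p 0.0286) on log2 values with 0.5 added, threshold 0.05, and levels within mice by all 256 sign changes. Intervals of those values invert the permutation test. DESeq2 1.42.0 and limma 3.58.1 gave alternatives. The procedure was tested on simulated data. Sequences were read from RefSeq and GENCODE tables with Python 3.11.15, and plots were drawn with matplotlib 3.10.9.

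The miRNAs named are the 5 members, both additional 3p arms of the miR-7 hairpins, the miRNAs listed with a TDMD trigger (of the 7 listed, 2 enter the counts and are not reported here by name), the 3 miRNAs with the highest r to miR-7a-5p and the 3 with the highest r to miR-671-3p, and markers where a result turns on them. The members and lists were chosen with earlier results of these data known. No pair of libraries of a strain agreed within sampling noise.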

Additional observations from a re-analysis of the deposited data

Results flagged for a closer look

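Within each strain, the highest or lowest of 4 mice was set against the others by Dixon's ratio at the 95% level. Of 48 groups of values, 3 stood apart, where chance gives about 1 in 20. The ratios of the miR-7 guides and of the miR-671 arms entered both ways up, so the 48 groups were not all distinct. miR-7b-3p was at 15.7 CPM in BTBR replicate 2, the shallowest library, with the next BTBR mouse at 3.01 CPM. miR-322-5p was at 9.21 CPM in B6 replicate 4, with the next B6 mouse at 22.6 CPM. The reads of miR-671-3p over those of miR-671-5p were 15.6 in B6 replicate 3, with the next B6 mouse at 8.56. This value rested on 13 reads of miR-671-5p, and BTBR replicates 1 and 3 had similar values of 15.7 and 16.5. Turned over, the same ratio in B6 replicate 3 (0.0640, with the next B6 mouse at 0.117) was not flagged.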

How the results depend on the processing

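No arm of miR-7 or miR-671 passed the threshold in any of the 18 settings of the strain fit (smallest adjusted p 0.533), and no ratio of theirs did in any setting. The within-mouse differences of miR-7b-5p against miR-7a-5p and of miR-671-3p against miR-671-5p stayed past the threshold in every alternative run. Over the 220 alternatives of strain differences and within-mouse differences together, 0 changed sides of the threshold. Of these, 18 turned the sign of a strain difference whose interval already covered 0. For the ratios and sums tested by permutation, the replicate block left too few assignments for a p under 0.05. The outcome of those block tests was fixed in advance and adds no support. The number of miRNAs past the threshold between strains was 7, and it was 21 with DESeq2, 16 with the edgeR exact test, 4 with library sizes alone (4 higher and 0 lower in BTBR, against 5 and 2), 4 at an adjusted p under 0.05, and 3 to 13 with a mouse left out (3 without BTBR replicate 3 or 4, 4 without BTBR replicate 1, 13 without B6 replicate 2). The number of arm pairs past the threshold was 0 to 1 with a mouse left out (1 without B6 replicate 4). With library sizes alone the sign turned to 0.0193 for miR-7a-5p, 0.0340 for miR-7b-5p, 0.0034 for miR-671-5p and 0.0131 for the summed guides. With a mouse left out, the log2 fold change ran from −0.32 to −0.05 for miR-7a-5p, −0.38 to 0.0044 for miR-7b-5p, −0.37 to −0.09 for miR-7a-1-3p, −0.46 to −0.14 for miR-7a-2-3p, −0.30 to 1.29 for miR-7b-3p, −0.36 to 0.082 for miR-671-5p, −0.0051 to 0.23 for miR-671-3p and −0.33 to −0.0022 for the summed guides. The log2 difference of the ratio ran from −0.034 to 0.20 for miR-7a-5p to miR-7a-1-3p, −0.061 to 0.22 for miR-7a-5p to miR-7a-2-3p, −0.0068 to 0.19 for miR-7a-5p to both passengers, −0.054 to 0.049 for miR-7a-5p to miR-7b-5p, −1.10 to −0.18 for miR-7b-5p to miR-7b-3p and −0.49 to −0.12 for miR-671-5p to miR-671-3p. The strains share replicate numbers, but mice of the same number did not deviate together (r = 0.05, −0.07, −0.15 and −0.15), and of the B6 mice 1 correlated best with the BTBR mouse of its own number. With the replicate number as a block, 3 miRNAs and 0 arm pairs passed, the log2 difference was −0.15 for miR-7a-5p and 0.09 for its ratio to miR-7a-1-3p, and no member was called. The depth limits miR-7b-3p (5 to 35 reads) and miR-671-5p (10 to 47 reads) most. The cause of these shifts was not tested.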
